A study of Mus musculus with 10 samples.

Results

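The genes described here encode the vascular endothelial growth factor (VEGF) system: the ligand genes Vegfa, Vegfb, Vegfc and Pgf, the receptor tyrosine kinase genes Kdr, Flt1 and Flt4, and the neuropilin genes Nrp1 and Nrp2. They were chosen by name and function, and each of the 9 genes had 1 probe set among the 24704 genes analysed. RNA came from primary murine liver sinusoidal endothelial cells (LSEC), which line the sinusoids, the fenestrated capillaries of the liver. The Gata4-LSEC-KO group held 5 arrays from mice that carried the Clec4g-icre driver transgene together with floxed Gata4, and the control group held 5 arrays from siblings labelled WT. The Cre is driven by control sequences of Clec4g, a gene of sinusoidal endothelium, so recombination was targeted to these cells. The labels do not say which alleles the siblings carried, nor the age or sex of the mice. Each array was made from a pool of 3 mice, and CD146, which Mcam encodes, was the antigen of the beads that isolated the cells.

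VEGF ligands are secreted dimers that act on endothelial cells through 3 receptor tyrosine kinases. VEGF-A binds the products of Kdr (VEGFR2, the main signalling receptor of blood vessels) and Flt1 (VEGFR1, which binds VEGF-A tightly, signals weakly and is also made as a soluble decoy), VEGF-B and placental growth factor bind VEGFR1, and VEGF-C binds VEGFR3, the product of Flt4, and after processing also VEGFR2. Neuropilins are co-receptors that bind VEGF ligands and class 3 semaphorins. In the liver, VEGF-A made by neighbouring cells is known to maintain sinusoidal fenestration, and VEGFR3, best known from lymphatic vessels, is also found on sinusoidal endothelium.

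All values below are log2 values made by RMA, the array summary method of the authors, and a difference of 1 is a 2-fold difference in array signal. Levels of different genes are not compared, because each probe set has its own response. Fold changes are Gata4-LSEC-KO minus control on the log2 scale, with the standard error (SE) and a p-value from limma, adjusted by the Benjamini-Hochberg method over all genes with a threshold of 0.05. Of all genes, 529 passed, which is 2.14%. That count was between 287 and 349 when Gata4-LSEC-KO replicate 1, 2 or 4 or control replicate 3, 4 or 5 was left out. One control array, replicate 1, was less like the rest: across genes its correlations with them were 0.920 to 0.944, where the remaining 9 arrays correlated with each other at 0.969 to 0.988. The Gata4 probe set averaged 8.59 ± 0.24 in Gata4-LSEC-KO and 8.71 ± 0.15 in control arrays (SD, n = 5 each; limma adjusted p = 0.742), and the sources used here do not give its position relative to the floxed part, so it does not check the labels. All 11 measured markers of endothelium in general, such as Pecam1 and Cdh5, averaged above the median of all values (3.70), as did all 14 sinusoidal markers. So did 12 of 12 stellate cell and fibroblast, 11 of 11 macrophage, 11 of 12 hepatocyte and 5 of 11 lymphocyte and platelet markers. Lying above that median therefore does not tell endothelium from other cells. Of the sinusoidal markers 7 were lower in Gata4-LSEC-KO, and of 12 continuous capillary markers 10 were higher.

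Among the 9 genes, Vegfa rose in Gata4-LSEC-KO and no other member passed the threshold in either direction. The rise was 2.73-fold. The count of 1 in 9 stands beside 2.14% of all genes and says nothing about the members as a group. The groups did not overlap for 2 members, Vegfa (higher) and Vegfb (lower), where 4.93% of all genes were separated in one direction or the other. The median log2 fold change of the 9 genes was -0.04, and that of all genes -0.02. At an unadjusted p under 0.05, limma gave 4 members, Vegfa, Vegfb, Flt4 and Nrp1, and 3371 of all 24704 genes. Every count at this cutoff below stands beside that share of all genes.

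**Figure D1:**
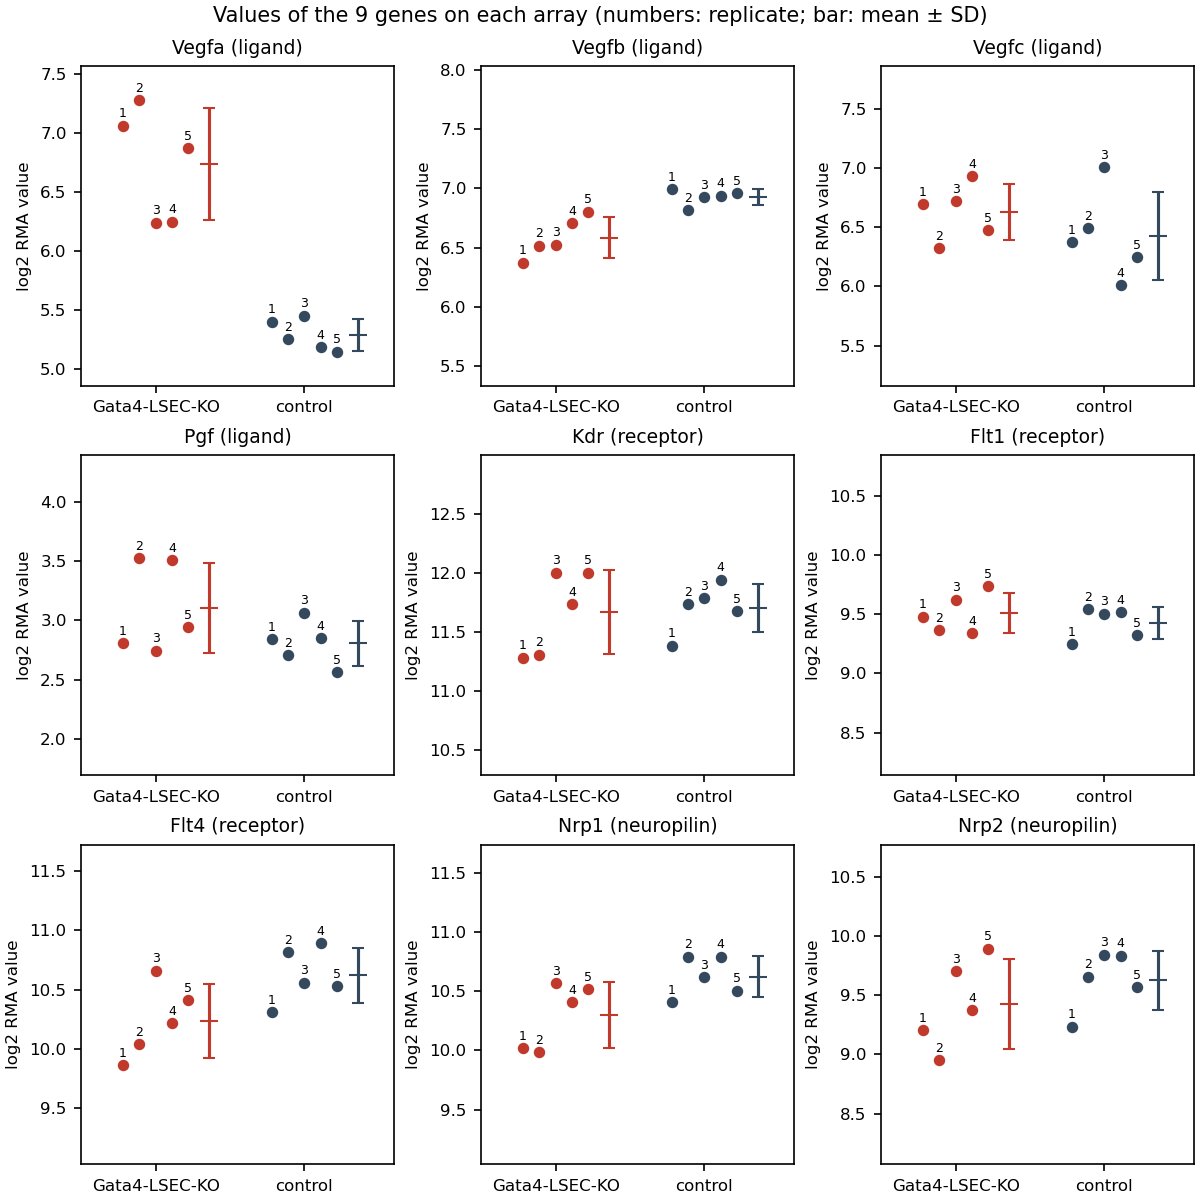
Log2 RMA value of each of the 9 genes on each array, with Gata4-LSEC-KO left of control. Every panel spans the same height on its own log2 axis, numbers give the replicate, and bars show mean ± SD of 5 arrays. The 5 Gata4-LSEC-KO arrays of Vegfa lie between 6.24 and 7.27, all above the control arrays, and those of Vegfb lie between 6.37 and 6.80, all below them.

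Vegfa encodes VEGF-A, the principal growth and survival factor of blood vessel endothelium. Its Gata4-LSEC-KO arrays read 7.06, 7.27, 6.24, 6.25 and 6.87 in replicates 1 to 5, against 5.41, 5.25, 5.46, 5.19 and 5.15 in control replicates 1 to 5. Every knockout array was above every control array, and the knockout arrays were more spread, with replicates 1, 2 and 5 high and replicates 3 and 4 close together below them. The means were 6.74 ± 0.47 in Gata4-LSEC-KO and 5.29 ± 0.13 in control (SD, n = 5 each). The log2 fold change was 1.45 ± 0.20 (SE), with a 95% interval of 1.01 to 1.89 and an adjusted p of 0.00312 by limma, which is 2.01-fold to 3.70-fold higher. By p it ranked 106 of 24704 genes, and by size of the change 134. In bulk RNA of this kind, a change in the RNA of each cell and a change in the share of cells that carry it cannot be told apart.

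Markers of other cells also differed between the groups. All 5 knockout arrays exceeded all control arrays in the summed log2 values of 12 neutrophil and monocyte markers, at 55.8 to 74.3 in Gata4-LSEC-KO and 36.5 to 45.1 in control, and 8 of the 12 passed the test, all higher. The largest of these changes were those of Lcn2 (3.29 ± 0.40), S100a8 (3.16 ± 0.53) and S100a9 (2.78 ± 0.43), given as log2 fold change ± SE. The sum over 8 cholangiocyte markers was 34.4 to 51.2 in Gata4-LSEC-KO and 27.3 to 34.8 in control, and 1 of the 8, Tm4sf4, passed. All 8 log2 fold changes were positive, with a median of 1.36, and by limma 7 of the 8 had an unadjusted p under 0.05. For 4 of them every knockout array was above every control array. RMA gives no zero values and detection calls were not used here. Averaged over the 10 arrays, 9 of the 12 neutrophil and monocyte markers and 7 of the 8 cholangiocyte markers lay above the median of all values.

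The order of the knockout arrays in Vegfa was partly that of the cholangiocyte mean, which was 6.40 and 5.81 in Gata4-LSEC-KO replicates 2 and 1, where Vegfa was highest, but 4.29 in replicate 5, where Vegfa was the next highest. The neutrophil and monocyte mean was 4.65, 6.19, 4.93, 5.77 and 4.88 in Gata4-LSEC-KO replicates 1 to 5. It was highest in replicate 2, as Vegfa was, but lowest in replicate 1. With the cholangiocyte mean as a covariate the Vegfa fold change was 1.02 ± 0.30 (adjusted p = 0.349), and with the neutrophil and monocyte mean it was 1.27 ± 0.49 (adjusted p = 0.999), so the call ended with either. Both covariates differ between the groups themselves. With the second one no gene of the whole table passed the limma test at the adjusted threshold. At an unadjusted p under 0.05 there were then 1172 of 24704 genes. The neutrophil and monocyte mean separates the groups completely, and the standard error of Vegfa was 0.49 with it and 0.20 without a covariate. The lost calls therefore do not show that no gene changes. The part that cholangiocytes, neutrophils and monocytes had in the Vegfa result was not tested. Hepatocytes are a known source of VEGF-A. The mean of 12 hepatocyte markers was 7.70, 6.23, 6.43, 7.62 and 6.09 in Gata4-LSEC-KO replicates 1 to 5 and 6.62 to 6.99 in control. These markers went both ways: 8 of the 12 log2 fold changes were positive and 4 negative, with a median of 0.24. By limma 2 passed, Cyp2c29 (-1.90 ± 0.26) and Cyp2e1 (-1.52 ± 0.31), both lower, and Alb, which encodes albumin, was at 0.96 ± 0.34 (adjusted p = 0.21). With the hepatocyte mean as a covariate Vegfa was at 1.46 ± 0.21 (adjusted p = 0.00581), and the part of hepatocyte RNA in the Vegfa result was not tested. With the macrophage mean it was at 1.44 ± 0.21 (limma adjusted p = 0.00469), and with the stellate cell mean at 1.42 ± 0.21 (limma adjusted p = 0.00639).

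The 3 genes whose profile over the 10 arrays, centred on the control mean, lay closest to that of Vegfa were Alcam, a cell adhesion molecule of the immunoglobulin superfamily, Rgs2, a regulator of G protein signalling, and Sik1, a salt-inducible kinase. Their root mean square differences from Vegfa were 0.23, 0.23 and 0.32 on the log2 scale. The log2 fold changes were 1.34 ± 0.21 for Alcam, 1.45 ± 0.20 for Rgs2 and 1.32 ± 0.16 for Sik1. They were picked for likeness to Vegfa, so their changes are a description.

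The sequence before the first listed RefSeq start of Vegfa is shown because it is the member that rose and because the deleted gene encodes a GATA factor, and that of Pgf because it is the other member whose window holds a GATA motif. Each run gives the 250 bases upstream of the start, 5′ to 3′ on the gene's own strand, from RefSeq's table of the mouse build GRCm38.p6, and capitals mark the GATA motif. Vegfa lies at chr17:46032378-46032627 and Pgf at chr12:85177314-85177563, both on the minus strand.
Vegfa: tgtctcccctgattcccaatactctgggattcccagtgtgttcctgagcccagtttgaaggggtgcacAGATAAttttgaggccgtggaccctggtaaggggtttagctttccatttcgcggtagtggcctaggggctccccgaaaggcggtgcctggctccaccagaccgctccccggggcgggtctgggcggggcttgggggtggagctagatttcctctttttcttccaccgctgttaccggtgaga
Pgf: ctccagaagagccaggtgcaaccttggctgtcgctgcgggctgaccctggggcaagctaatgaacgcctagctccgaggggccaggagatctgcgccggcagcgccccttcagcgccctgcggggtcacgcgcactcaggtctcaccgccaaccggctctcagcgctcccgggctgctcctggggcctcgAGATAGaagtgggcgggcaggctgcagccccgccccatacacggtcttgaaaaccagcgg

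The motif searched was AGATAA or AGATAG or TGATAA or TGATAG on either strand, in a window that ran a little past the start. It begins 182 bases before the start in Vegfa and 60 bases before it in Pgf. All 9 members were in the table, and 2 of their 9 first listed windows held the motif, where 30.2% of the first windows of 27025 genes did. A core motif of the hypoxia response (ACGTG or GCGTG) stood in 6 of the 9 first windows, not in those of Vegfa, Vegfc and Flt4, and in 43.8% of all first windows. For Vegfa both results depend on the start: the table lists a second start for it, and that window held 2 hypoxia cores and 0 GATA motifs. The second listed window of Pgf held 0 of either. An ETS core (CCGGAA or CAGGAA or AAGGAA) stood in 5 of the 9 and in 56.6% of all. The GC box GGGCGG stood in 9 of the 9 and in 35.9% of all. The cores and boxes were counted on both strands, overlapping matches were kept, and none of these motifs contains another. A match to a few letters in a window is a description of the sequence and not a measured binding site.

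The other ligand genes did not pass the threshold. Vegfb encodes VEGF-B, a ligand of VEGFR1 known for its part in endothelial fatty acid uptake. It read 6.37, 6.52, 6.53, 6.71 and 6.80 in Gata4-LSEC-KO replicates 1 to 5, against 6.99, 6.82, 6.93, 6.94 and 6.96 in control replicates 1 to 5. All knockout arrays were below all control arrays, with the highest knockout value of 6.80 just under the lowest control value of 6.82. The log2 fold change was -0.34 ± 0.10 (SE; 95% interval -0.57 to -0.11), with an unadjusted p of 0.00708 and an adjusted p of 0.142 by limma. Its sign was negative in all 22 alternatives run, which adds little. Leaving out an array could not change the sign, because the groups did not overlap. Some other settings, such as the replicate block, leave the estimate itself unchanged. With the cholangiocyte mean as a covariate the fold change was -0.14 ± 0.16.

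Vegfc encodes VEGF-C, the ligand of VEGFR3 and a lymphangiogenic factor. It lay between 6.33 and 6.93 in Gata4-LSEC-KO and between 6.01 and 7.01 in control, so the control arrays enclosed the knockout arrays. The fold change was 0.20 ± 0.18 (95% interval -0.19 to 0.60, limma adjusted p = 0.682).

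Pgf encodes placental growth factor, a ligand of VEGFR1. All 10 arrays were below the median of all values, at 2.75 to 3.52 in Gata4-LSEC-KO and 2.56 to 3.07 in control. Only replicates 2 and 4 of the knockout, at 3.52 and 3.51, exceeded every control array. The fold change was 0.30 ± 0.18 (95% interval -0.09 to 0.69, limma adjusted p = 0.518), and at this level it compares array signals near the dim end and not amounts of RNA.

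**Figure D2:**
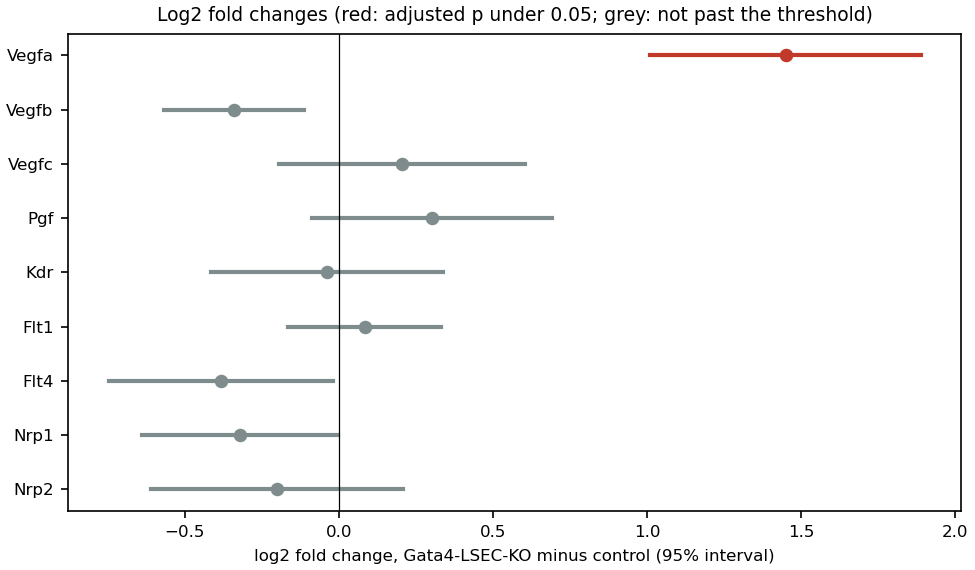
Log2 fold change (Gata4-LSEC-KO minus control) of the 9 genes with 95% intervals from limma. Red marks the gene past the adjusted threshold and grey the genes not past it. The interval of Vegfa runs from 1.01 to 1.89, and those of Vegfb, Flt4 and Nrp1 end just below 0.

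Of the receptor genes, 0 of the 3 passed by limma at the adjusted threshold, while 1 of the 3, Flt4, had an unadjusted p under 0.05. Kdr read 11.28, 11.31, 12, 11.73 and 12 in Gata4-LSEC-KO replicates 1 to 5, against 11.38, 11.73, 11.78, 11.94 and 11.68 in control replicates 1 to 5. The knockout arrays lay on both sides of the controls, with replicates 1 and 2 below the lowest and replicates 3 and 5 above the highest control value. The log2 fold change was -0.04 ± 0.17 (95% interval -0.42 to 0.34, adjusted p = 0.95), so the interval reaches from 0.749-fold to 1.26-fold of control. Without Gata4-LSEC-KO replicate 1 it was 0.06 and without replicate 2 it was 0.05.

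Flt1 varied least of the 9 genes, with a range of 0.49 over all 10 arrays. It lay between 9.34 and 9.74 in Gata4-LSEC-KO and between 9.25 and 9.54 in control, and the groups overlapped. The fold change was 0.08 ± 0.11 (95% interval -0.16 to 0.33, limma adjusted p = 0.806), which spans 0.892-fold to 1.26-fold. The sources used here do not tell whether the probe set reads the membrane form, the soluble decoy form or both.

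Flt4 read 9.86, 10.04, 10.66, 10.21 and 10.41 in Gata4-LSEC-KO replicates 1 to 5, against 10.31, 10.82, 10.56, 10.89 and 10.53 in control replicates 1 to 5. In the knockout, replicates 1, 2 and 4 were below every control array and replicates 3 and 5 were within the control range. The fold change was -0.38 ± 0.17 (95% interval -0.75 to -0.02), with an unadjusted p of 0.0402 and an adjusted p of 0.332 by limma.

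The neuropilin genes gave 0 of 2 past the adjusted threshold by limma and 1 of 2, Nrp1, at an unadjusted p under 0.05. Nrp1, the co-receptor of VEGF-A on blood vessels, read 10.02, 9.99, 10.57, 10.41 and 10.52 in Gata4-LSEC-KO replicates 1 to 5, against 10.41, 10.79, 10.62, 10.79 and 10.50 in control replicates 1 to 5. Knockout replicates 1 and 2 were below every control array, and all 5 knockout arrays were below the control mean of 10.62. The fold change was -0.32 ± 0.15 (95% interval -0.64 to -0.003, limma adjusted p = 0.36). Nrp2, the co-receptor of VEGF-C, lay between 8.95 and 9.89 in Gata4-LSEC-KO and between 9.23 and 9.84 in control, with a fold change of -0.20 ± 0.19 (limma adjusted p = 0.699).

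Kdr, Flt4, Nrp1 and Nrp2 shared an order of arrays. In each of the 4 genes, replicates 1 and 2 were the lowest of the knockout arrays and replicate 1 was the lowest of the control arrays. The mean of the 11 general endothelial markers had the same low arrays, at 9.47 and 9.53 in Gata4-LSEC-KO replicates 1 and 2 against 9.78 to 9.95 in the other knockout arrays, and 9.60 in control replicate 1 against 9.64 to 9.83 in the other controls. None of these 11 markers passed by limma, and 2 had an unadjusted p under 0.05. A fit with their mean as a covariate, chosen after seeing the data, left the fold changes nearly as they were and reduced their errors: Flt4 was at -0.39 ± 0.09 (adjusted p = 0.0603), Nrp1 at -0.33 ± 0.08 (adjusted p = 0.0681) and Kdr at -0.05 ± 0.09 (adjusted p = 0.869). None of the 3 passed the threshold in that fit either, while Vegfa was at 1.45 ± 0.16 (adjusted p = 0.00115). With the cholangiocyte mean as a covariate in its place, the sizes were smaller and the errors larger for Flt4 (-0.095 ± 0.26) and Nrp1 (-0.0089 ± 0.22).

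**Figure D3:**
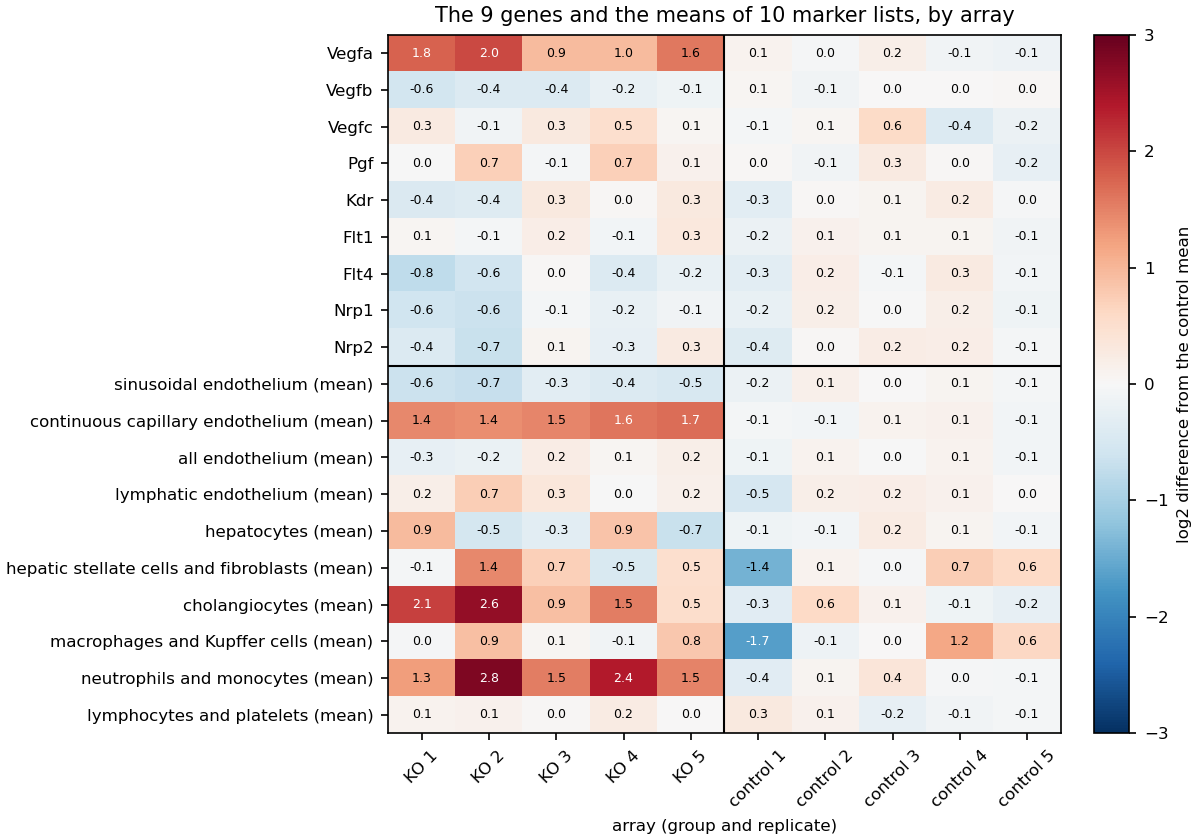
Difference of each array from the control mean, on the log2 scale, for the 9 genes (above the line) and the means of 10 marker lists (below it), with Gata4-LSEC-KO arrays (KO) left of control arrays. Vegfa is above the control mean in all 5 knockout arrays. So are the continuous capillary, cholangiocyte, and neutrophil and monocyte lists and, by little, the lymphocyte and platelet list. Flt4, Nrp1 and the general endothelial list share low values in knockout replicates 1 and 2.

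To ask whether members changed unequally, 3 differences between them were formed within each array. Subtracting one gene from another removes what both share on an array, and only the change of the difference between groups is read, since its level depends on the probe sets. Flt4 minus Kdr was -1.42, -1.27, -1.34, -1.52 and -1.59 in Gata4-LSEC-KO replicates 1 to 5, against -1.08, -0.92, -1.22, -1.05 and -1.15 in control replicates 1 to 5. All knockout arrays were below all control arrays. The means were -1.43 ± 0.13 in Gata4-LSEC-KO and -1.08 ± 0.11 in control (SD, n = 5 each), a difference of -0.34 with an exact permutation p of 0.00794 (two-sided, over 252 assignments), which is the smallest this design allows. Adjusted over the 3 differences it was 0.0238. By this test Flt4, the VEGFR3 gene, and Kdr, the VEGFR2 gene, changed unequally between the groups, while neither passed the threshold singly. How often other pairs of genes differ by as much was not examined.

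The other 2 differences did not separate the groups. Flt1 minus Kdr averaged -2.16 ± 0.27 in Gata4-LSEC-KO and -2.28 ± 0.12 in control (exact permutation p = 0.389, adjusted 0.389, n = 5 each). Nrp2 minus Nrp1 averaged -0.87 ± 0.17 in Gata4-LSEC-KO and -0.995 ± 0.16 in control (exact permutation p = 0.278, adjusted 0.389, n = 5 each). A p above the threshold does not show that these genes changed alike.

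**Figure D4:**
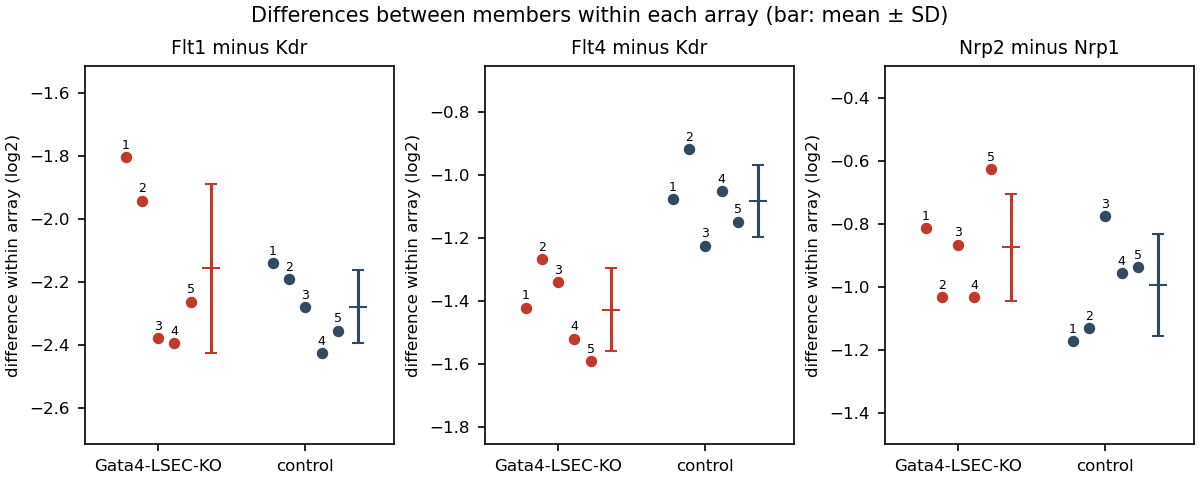
Within-array differences of log2 values for Flt1 minus Kdr, Flt4 minus Kdr and Nrp2 minus Nrp1, with Gata4-LSEC-KO left of control, replicate numbers on the points and mean ± SD of 5 arrays. Flt4 minus Kdr lies between -1.59 and -1.27 in the knockout and between -1.22 and -0.92 in the control arrays, and the other differences overlap.

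The upstream sequences of Flt4 and Kdr are shown as those of the receptor genes that changed unequally. They are given as for Vegfa above and hold no GATA motif, which says only that these letters are not in this window. Flt4 lies at chr11:49609429-49609678 on the plus strand and Kdr at chr5:75978456-75978705 on the minus strand (GRCm38.p6, RefSeq).
Flt4: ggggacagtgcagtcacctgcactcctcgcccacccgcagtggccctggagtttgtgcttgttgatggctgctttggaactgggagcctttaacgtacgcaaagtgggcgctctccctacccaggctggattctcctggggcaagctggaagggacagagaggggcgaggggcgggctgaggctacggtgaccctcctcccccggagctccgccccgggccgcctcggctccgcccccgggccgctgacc
Kdr: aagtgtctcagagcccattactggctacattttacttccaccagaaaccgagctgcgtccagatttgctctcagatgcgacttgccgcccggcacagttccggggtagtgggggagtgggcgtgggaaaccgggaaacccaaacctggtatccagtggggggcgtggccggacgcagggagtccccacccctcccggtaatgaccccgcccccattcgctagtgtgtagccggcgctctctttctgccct

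Around the 9 genes, 5 lists of the pathway were examined. The largest share of changes was among transcripts known to be induced by VEGF in endothelium, where 10 of 26 genes rose, 0 fell and 16 did not pass by limma. At an unadjusted p under 0.05 there were 16. The list median was 0.51. For this and the other 4 lists, the values over all genes were 2.14% past the threshold and a median of -0.02. Esm1, Apln and Kcne3 are also in the continuous capillary list. The list was chosen with earlier results of these samples known and is not independent evidence of a direction. With the cholangiocyte mean as a covariate 4 of the 26 passed, and with the neutrophil and monocyte mean 0 passed by limma.

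Esm1, the proteoglycan endocan of sprouting endothelium, read 10.13, 9.32, 9.73, 10.47 and 9.77 in Gata4-LSEC-KO replicates 1 to 5, against 8.23, 5.43, 6.83, 7.32 and 6.71 in control replicates 1 to 5. Pdgfb, a growth factor that recruits pericytes, lay between 6.83 and 7.78 in Gata4-LSEC-KO and between 4.78 and 5.76 in control. Apln, the peptide ligand of the apelin receptor, lay between 5.18 and 6.13 in Gata4-LSEC-KO and between 2.96 and 3.96 in control. None of these 3 genes overlapped between the groups. Kcne3, a potassium channel subunit, lay between 6.18 and 7.60 in Gata4-LSEC-KO and between 4.78 and 5.57 in control, and it did not overlap either. Of the 26 genes in the list, 10 had every knockout array above every control array and 0 the reverse. Over all genes, 4.93% were separated in one direction or the other. The order of the knockout arrays differed from gene to gene: Vegfa and Kcne3 were lowest in replicate 3, Esm1 and Apln were lowest in replicate 2, where Vegfa was highest, and Pdgfb was lowest in replicate 1. The other 6 that rose were Nid2, Stc1, Cxcr4, Nr4a1, Sele and Plau, named after their values were seen, with log2 fold changes from 0.85 for Plau to 1.88 for Nid2.

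**Figure D5:**
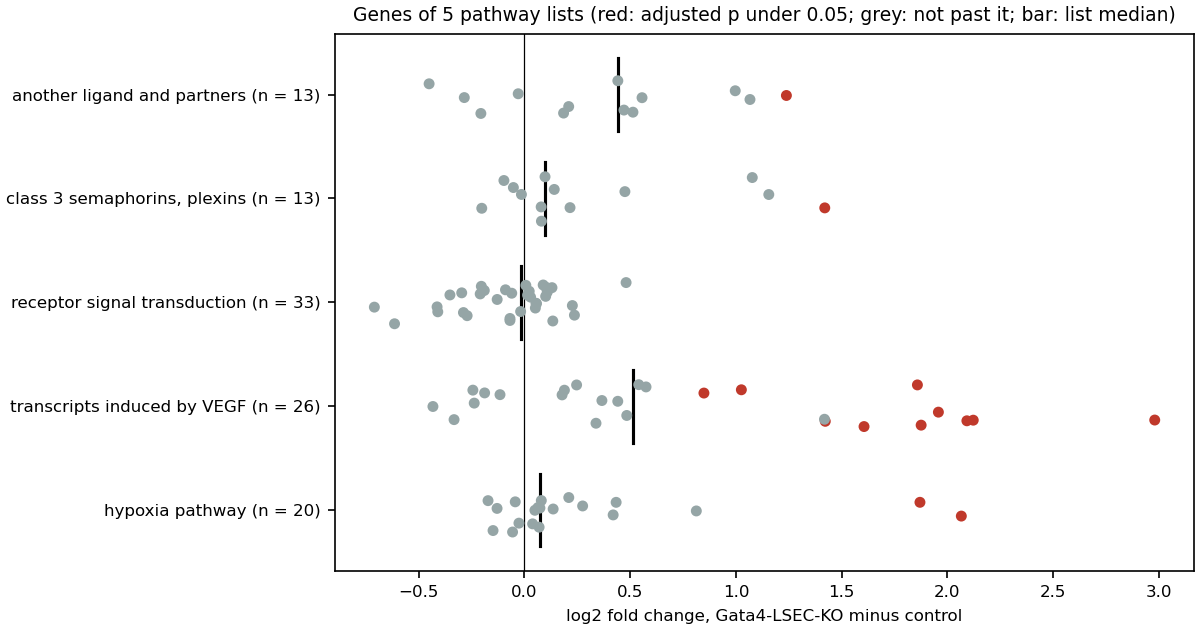
Log2 fold change (Gata4-LSEC-KO minus control) of each measured gene in 5 pathway lists, with red for genes past the adjusted threshold, grey for the rest, a black bar at each list's median and random vertical spread within a list. In the list of transcripts induced by VEGF 10 of 26 genes are red, and in the list of receptor signal transduction 0 of 33 are.

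Of the genes that carry the signal from VEGF receptors inside the cell, 38 were listed and 33 were measured, and the other 5 were not analysed here. Of the 33, 0 passed by limma and 8 had an unadjusted p under 0.05, and the median log2 fold change was -0.02. The smallest p-values were those of Epn2, an endocytic adaptor of the epsin family, and Gab1, a docking protein. Epn2 averaged 6.40 ± 0.21 in Gata4-LSEC-KO and 6.82 ± 0.18 in control (SD, n = 5 each), a fold change of -0.41 ± 0.13 (limma adjusted p = 0.16). Gab1 averaged 6.49 ± 0.20 in Gata4-LSEC-KO and 6.01 ± 0.32 in control (SD, n = 5 each), a fold change of 0.48 ± 0.16 (limma adjusted p = 0.184). Without control replicate 1 the count past the threshold was 1. Whether this list and the induced transcripts differ was not tested.

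Hypoxia raises Vegfa transcription through hypoxia-inducible factors, so the genes of that pathway were listed as well. Of 20 genes 2 rose, 18 did not pass by limma, and the median was 0.07. Egln3, a prolyl hydroxylase that is itself a target of the pathway, lay between 4.78 and 5.89 in Gata4-LSEC-KO and between 2.19 and 3.87 in control (fold change 2.07 ± 0.31, limma adjusted p = 0.00549). Slc2a1, the glucose transporter GLUT1, lay between 6.32 and 7.12 in Gata4-LSEC-KO and between 3.18 and 5.57 in control (1.87 ± 0.40, limma adjusted p = 0.0348). The lowest value of both genes was that of control replicate 1. The call of Slc2a1 ended, and the count of the list became 1, without Gata4-LSEC-KO replicate 1, 2, 4 or 5 or control replicate 3 or 5, with adjusted p up to 0.0941. At an unadjusted p under 0.05 there were 4, these and 2 more that did not pass after adjustment: Ankrd37 at 0.81 ± 0.22 (limma adjusted p = 0.102), with every knockout array above every control array, and Ldha, a lactate dehydrogenase subunit, at 0.43 ± 0.13 (limma adjusted p = 0.117). The other 16 genes had an unadjusted p of 0.05 or more, among them the factor genes Hif1a (0.08 ± 0.09) and Epas1 (-0.03 ± 0.12). Ankrd37, Ldha, Hif1a and Epas1 were named after their values were seen.

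Among a further VEGF ligand and partners of the ligands or receptors, 1 of 13 genes rose, 12 did not pass by limma, and the median was 0.44. The gene was Mcam, which encodes CD146, a co-receptor of VEGFR2 and the antigen used to isolate the cells. It read 8.95, 8.96, 8.91, 9.14 and 9.07 in Gata4-LSEC-KO replicates 1 to 5, against 7.69, 7.48, 7.89, 7.96 and 7.81 in control replicates 1 to 5, a 2.36-fold rise (1.24 ± 0.11, limma adjusted p = 0.000242). Its groups did not overlap. The count was 2 without Gata4-LSEC-KO replicate 3 and 3 without replicate 5. With all arrays, limma gave 6 of the 13 at an unadjusted p under 0.05. Vegfd, a ligand of VEGFR3, was at -0.21 ± 0.19 (limma adjusted p = 0.699) and was named after its value was seen.

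Class 3 semaphorins share the neuropilins with the VEGF ligands and signal through plexins. Of 13 such genes 1 rose, 12 did not pass by limma, and the median was 0.10. Sema3g, an endothelial semaphorin that binds neuropilin 2, read 5.50, 5.84, 6.35, 6.44 and 6.90 in Gata4-LSEC-KO replicates 1 to 5, against 5.17, 4.79, 5.07, 4.50 and 4.41 in control replicates 1 to 5. All knockout arrays were above all control arrays, and the fold change was 2.68-fold (1.42 ± 0.25, limma adjusted p = 0.0139). The count was 2 without Gata4-LSEC-KO replicate 3 or 5. With all arrays, limma gave 4 of the 13 at an unadjusted p under 0.05.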

How the data were processed

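RNA of 10 samples, 5 per group and each pooled from 3 mice, was measured on 1-colour arrays. The authors deposited log2 values made with RMA, per the submitters' processing notes (version not given); the log2 scale is judged from the value range. After sorting, 9 of the 10 arrays held identical values and the other deviated by up to 0.00186, and the values were used without renormalizing. No source used here names the array design. Of 25428 probe sets, 24705 had 1 gene symbol and 723 were unnamed here; the brighter probe set was kept for 1 duplicated symbol, leaving 24704 genes.

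Groups were compared with limma 3.58.1 in R 4.3.3 (lmFit, eBayes, no filter, no covariate), two-sided, with Benjamini-Hochberg adjustment over all genes. Pairs of members were compared by an exact permutation test over samples. P-values measure the spread between pools, and the number of arrays limits the precision. The main limma fit was tested on simulated data in which genes varied independently, without differences shared by the genes of an array. The permutation test and the fits with covariates were not part of that. Replicate numbers are not stated to pair the groups, so the main fit used no block. Deviations of same-numbered arrays correlated at -0.16 to 0.04, which cannot exclude a pairing.

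The members, the 5 pathway lists and the 10 marker lists were chosen with earlier results of these data known. Genes named were the 9 members, Gata4, up to 4 genes past the threshold per pathway list (otherwise the 2 with the smallest p), up to 3 per marker list, and the 3 profiles closest to a member past the threshold.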

Additional observations from a re-analysis of the deposited data

How the results depend on the processing

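The call of Vegfa held in 20 of 22 alternatives. Its log2 fold change lay between 1.31 and 1.57 (adjusted p 0.00282 to 0.0136) when each array was left out in turn, and the number of members past the threshold was then 1 in every case. With the neutrophil and monocyte mean or the cholangiocyte mean as a covariate 0 members passed by limma, with 2 and 1 of the 9 at an unadjusted p under 0.05. The number of all genes past the threshold was 1070 with array weights and 287 to 737 with 1 array left out. It was 65 with the cholangiocyte mean and 0 with the neutrophil and monocyte mean as a covariate. At an unadjusted p under 0.05 by limma, the first covariate gave 1960 of 24704 genes and the second 1172. The second covariate separates the groups completely, and with it the standard error of Vegfa was 0.49 against 0.20 in the main fit. The lost calls therefore do not show that no gene changes.

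With the replicate number as a block 275 genes passed, Vegfa remained past the threshold (adjusted p = 0.0215) and Sema3g (0.0794) and Slc2a1 (0.06) did not. Flt4 minus Kdr was -0.34 under this block with an exact sign-flip p of 0.0625, the smallest that 5 pairs allow, so that test could not pass. It lay between -0.38 and -0.30 with 1 array left out (exact permutation p 0.00794 to 0.0159).

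Fold changes near 0 changed sign under some settings. That of Kdr was 0.017 after cyclic loess, 0.42 with the cholangiocyte and 0.11 with the neutrophil and monocyte covariate, and -0.12 to 0.056 with 1 array left out. With these covariates in the same order, Pgf was at -0.015 and -0.68 and Nrp2 at 0.29 and 0.16, and Epn2 was at 0.12 with the second one. The cause was not tested. Pgf was not tested where genes under the median of all values were left out. Other background corrections and array dates were not analysed here.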
